A study of Mus musculus with 12 samples.

Results

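The enzymes of the tricarboxylic acid (TCA) cycle are represented here by 9 nuclear genes, Cs, Idh2, Idh3a, Idh3b, Idh3g, Ogdh, Suclg1, Fh1 and Mdh2. They were picked by gene name from a table of 56748 genes, and all 9 were found and passed the filter on low values in every comparison. The study asked what the loss of Shp2, a protein tyrosine phosphatase encoded by Ptpn11, does to rod photoreceptors of the mouse retina. RNA was sequenced from whole retina and from rod ribosomes pulled down by translating ribosome affinity purification (TRAP), in which Cre switches on a tagged ribosomal protein. Control (Het) mice were RiboTag;Shp2fl/+;i75-Rod-Cre, with 1 floxed Shp2 allele, and KO mice were RiboTag;Shp2fl/fl;i75-Rod-Cre, with both alleles floxed. All were 2 weeks old, all carried RiboTag and the Cre driven by the rhodopsin promoter, and retinas were taken after cycloheximide perfusion. Each of the 4 groups (Het retina, KO retina, Het rods, KO rods) held 3 libraries. The titles call the controls wt, whereas the genotype label gives Shp2_Rodhet, and the genotype label was used. The labels do not say which mice the libraries came from, so p-values measure the spread between these libraries, which may be technical.

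The TCA cycle runs in the mitochondrial matrix, where it oxidises acetyl groups to carbon dioxide and passes electrons to the respiratory chain. Its enzymes are encoded in the nucleus, translated in the cytosol and imported, so that their messages can be recovered on tagged ribosomes. Rods pack mitochondria into the inner segment and are known for a high demand for ATP, although much of the glucose they take up leaves as lactate. Some steps have alternative enzymes. Isocitrate is oxidised by an NAD-linked enzyme of Idh3a, Idh3b and Idh3g subunits or by the NADP-linked Idh2, and succinyl-CoA ligase joins the Suclg1 subunit either to Sucla2, which makes ATP, or to Suclg2, which makes GTP.

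Deposited values were whole numbers that had been brought to nearly equal totals within a fraction, 14525527 to 14527992 in retina and 16263948 to 16265259 in rods, so the original depth is not known. All 8 rod markers were higher in Het rods than in Het retina, with a median log2 fold change of 1.86, and took 14.4% to 16.8% of the total in rod libraries. All 7 cone markers (median -1.14), all 8 Müller glia markers (-4.84) and 7 of 8 bipolar cell markers (-5.19) were called lower. The remaining bipolar marker, Prkca, was at 0.01, and 0 of 5 lens genes were called (median -4.72). Transcripts of the mitochondrial genome took 5.30% to 9.58% of the total in retina and 0.0452% to 0.0854% in rods. The same 5 lens genes together took up to 3.91% of a retina library (KO retina replicate 3), and other lens genes were not counted. Ptpn11 stood at 2511, 2439 and 2431 in Het rod libraries, compared with 1735, 2139 and 1971 for KO rods. The KO libraries all lay below the Het libraries, and the log2 fold change was -0.26 (SE 0.09, adjusted p = 0.0635 in limma), which missed the threshold.

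Promoters of 3 genes are shown as examples, Cs and Mdh2 of members higher and Idh2 of the member lower in rods than in retina. Each is the 250 bases before the RefSeq gene start (GRCm38.p6), written 5′ to 3′ on the gene's strand. They lie at chr10:128337477-128337726 (plus strand, Cs), chr7:80115351-80115600 (minus strand, Idh2) and chr5:135778399-135778648 (plus strand, Mdh2). Capitals mark a match on either strand to TAATCC, the core bound by the photoreceptor homeobox factor Crx, or to GGGCGG, the GC box bound by Sp1 factors.
Cs: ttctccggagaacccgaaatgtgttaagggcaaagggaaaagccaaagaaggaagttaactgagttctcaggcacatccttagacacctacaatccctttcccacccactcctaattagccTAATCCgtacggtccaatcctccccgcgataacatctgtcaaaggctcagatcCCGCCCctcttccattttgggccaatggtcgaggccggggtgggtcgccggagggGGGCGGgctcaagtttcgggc
Idh2: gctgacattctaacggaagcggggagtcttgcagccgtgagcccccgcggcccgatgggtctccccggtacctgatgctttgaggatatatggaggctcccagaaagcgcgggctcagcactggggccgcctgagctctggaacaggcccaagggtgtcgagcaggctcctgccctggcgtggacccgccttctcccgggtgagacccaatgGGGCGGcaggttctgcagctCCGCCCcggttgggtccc
Mdh2: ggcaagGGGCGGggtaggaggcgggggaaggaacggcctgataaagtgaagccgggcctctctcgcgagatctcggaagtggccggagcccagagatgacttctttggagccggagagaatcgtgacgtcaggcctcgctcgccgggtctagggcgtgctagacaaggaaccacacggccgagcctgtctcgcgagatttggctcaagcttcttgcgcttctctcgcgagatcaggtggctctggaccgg

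The Cs promoter held 1 Crx core 129 bases before the start, and the Idh2 and Mdh2 windows held none. Suclg1, which is not shown and was also called higher in rods, had neither a Crx core nor a GC box in its window. A Crx core was found in 3 of 13 windows, belonging to 2 of the 8 members with a window (Cs and Ogdh), against 6.25% of 32851 promoter windows. A GC box was found in 6 of 13 windows, belonging to 5 members, against 32.7% of all windows. AAGGTCA, a half-site of oestrogen-related receptors, and the NRF1 motif were found in 0 of 13 windows, against 4.08% and 3.74% of all windows. Ogdh alone gave 6 of the windows, which overlap, and these letter matches are a description only.

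In control mice, most TCA cycle genes were higher in rod TRAP RNA than in whole-retina RNA, and Idh2 was lower. Of the 9 members, 5 passed the test as higher (Mdh2, Suclg1, Cs, Fh1 and Idh3a), 1 passed as lower (Idh2), and 3 did not pass (Idh3g, Ogdh and Idh3b). A gene was called at an adjusted p below 0.05 in limma with an absolute log2 fold change above 0.5, and 21.4% of the 16110 genes tested were called higher and 36.8% lower. The median log2 fold change was 0.54 over the members and -0.11 over all genes tested. In bulk RNA a lower value cannot tell fewer cells of a type from less RNA per cell. After scaling, 7 of 9 members had every rod library above every retina library and 0 had every one below, where 28.5% and 40% of all genes did so (68.6% in either direction). Retina libraries hold rod RNA as well, so the comparison sets rods against a mixture that contains them. It also sets RNA pulled down on ribosomes against total RNA. Cell type, binding to ribosomes and the pulldown therefore cannot be told apart in any rod against retina difference given here.

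Citrate synthase, encoded by Cs (ENSMUSG00000005683, chromosome 10), condenses acetyl-CoA with oxaloacetate and opens the cycle. Its values as deposited were 2824, 2927 and 2405 for Het retina, compared with 3709, 4158 and 3827 for Het rods. Every rod library was above every retina library, and the log2 fold change was 0.77 (SE 0.12, adjusted p = 0.000471 in limma). In KO mice the values were 2825, 2456 and 2651 in retina and 3920, 3527 and 3858 in rods, and again the groups did not overlap. The KO rods exceeded the KO retinas by a log2 fold change of 0.88 (SE 0.11, adjusted p = 0.000138 in limma).

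Of the 3 subunits of NAD-linked isocitrate dehydrogenase, Idh3b was lower relative to Idh3a in rods than in retina. Idh3g was not shown to differ from Idh3a in this (ratios below). Idh3a (ENSMUSG00000032279, chromosome 9), the catalytic subunit, had 2052, 2012 and 2059 in Het retina and 2592, 2496 and 2393 in Het rods, without overlap. Its log2 fold change was 0.54 (SE 0.10, adjusted p = 0.00151 in limma), just past the size required. Idh3b (ENSMUSG00000027406, chromosome 2), a regulatory subunit, had 1634, 1743 and 1573 in Het retina against 1555, 1744 and 1625 in Het rods. These deposited values overlapped, and the fitted log2 fold change of 0.24 (adjusted p = 0.0934 in limma) did not pass. Idh3g (ENSMUSG00000002010, chromosome X), the other regulatory subunit, had 904, 1013 and 817 in Het retina and 1034, 1147 and 1015 in Het rods. The rod libraries were the higher ones, by a log2 fold change of 0.48 (adjusted p = 0.0114 in limma), short of the size required.

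Idh2 (ENSMUSG00000030541, chromosome 7), the NADP-linked mitochondrial isocitrate dehydrogenase, was the member that fell. Retina libraries of Het mice had 181, 295 and 272, whereas rod libraries had 63, 44 and 162. Het rod replicate 3 stood well above the other 2 rod libraries and close to the lowest retina library, and after scaling the groups overlapped. The log2 fold change was -1.40 (SE 0.45, adjusted p = 0.0232 in limma). The call was lost without Het retina replicate 2 (adjusted p = 0.117 in limma) or 3 (0.0581) and without Het rod replicate 1 (0.08) or 2 (0.0819), with differences of -1.39, -1.38, -1.25 and -1.01, and in 1 fit of all 12 libraries (-1.26, adjusted p = 0.0532). In KO mice Idh2 had 208, 194 and 620 in retina and 33, 91 and 61 in rods, and the log2 fold change was -1.96 (SE 0.50, adjusted p = 0.00744 in limma). KO retina replicate 3, with 620, lay far above the other retina libraries. That library also had the highest share of 5 lens genes, 3.91%. Its share of 5 retinal pigment epithelium genes was 0.0334%, against 0.00148% to 0.0114% in the other retinas. Best1 among them (13) lay within the range of the other retinas. Its 8 Müller glia genes took 0.472% against 0.320% to 0.43%. Of these, Apoe, Vim and Dkk3 were highest there, Slc1a3 and Kcnj10 lowest, and Glul, Rlbp1 and Sox9 in between. KO rod replicate 3 had the highest lens and pigment epithelium shares among rod libraries, 0.06245% and 0.00161%, with an Idh2 value of 61. Het rod replicate 3 had the highest share of 8 Müller glia genes among rod libraries, 0.0189% against at most 0.0140%. Vim stood out among these genes, with 976 there against 75 to 303 in the other rod libraries. Glul (1380 against 754 to 1332) and Kcnj10 (120 against 83 to 113) were slightly above the others. Rlbp1, Slc1a3, Apoe, Sox9 and Dkk3 lay within the range of the other rod libraries. The part of these cells in the Idh2 values was not tested.

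Ogdh (ENSMUSG00000020456, chromosome 11) encodes the first component of the oxoglutarate dehydrogenase complex. It had 3145, 3568 and 2545 in Het retina and 3092, 3341 and 3108 in Het rods, and the groups overlapped. Its log2 fold change of 0.30 (adjusted p = 0.089 in limma) did not pass. Suclg1 (ENSMUSG00000052738, chromosome 6), the shared subunit of succinyl-CoA ligase, had 870, 978 and 901 in Het retina and 1319, 1344 and 1350 in Het rods. The groups were well apart, with a log2 fold change of 0.79 (SE 0.12, adjusted p = 0.000325 in limma).

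Fh1 (ENSMUSG00000026526, chromosome 1), which encodes fumarase, had 777, 781 and 788 in Het retina and 1048, 966 and 942 in Het rods. All rod libraries were higher, with a log2 fold change of 0.58 (SE 0.11, adjusted p = 0.00176 in limma). Mdh2 (ENSMUSG00000019179, chromosome 5), the mitochondrial malate dehydrogenase that regenerates oxaloacetate, had 2378, 3416 and 1909 in Het retina and 3575, 4644 and 3998 in Het rods. It had the largest rise of the 9 members, a log2 fold change of 0.95 (SE 0.21, adjusted p = 0.0043 in limma), although the retina libraries spread widely. The calls of Fh1 and Idh3a were lost without Het retina replicate 1 (0.46 and 0.43) or 2 (0.45 and 0.40), that of Idh3a also without Het retina replicate 3 (0.48), and both after GC correction (0.42 and 0.36). Without 1 Het retina library, 13394 to 13398 genes passed the filter instead of 16110. The median log2 fold change of all genes was then 0.01 to 0.02 instead of -0.11. The part of the library and that of the filter in these lost calls was not tested.

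**Figure D1:**
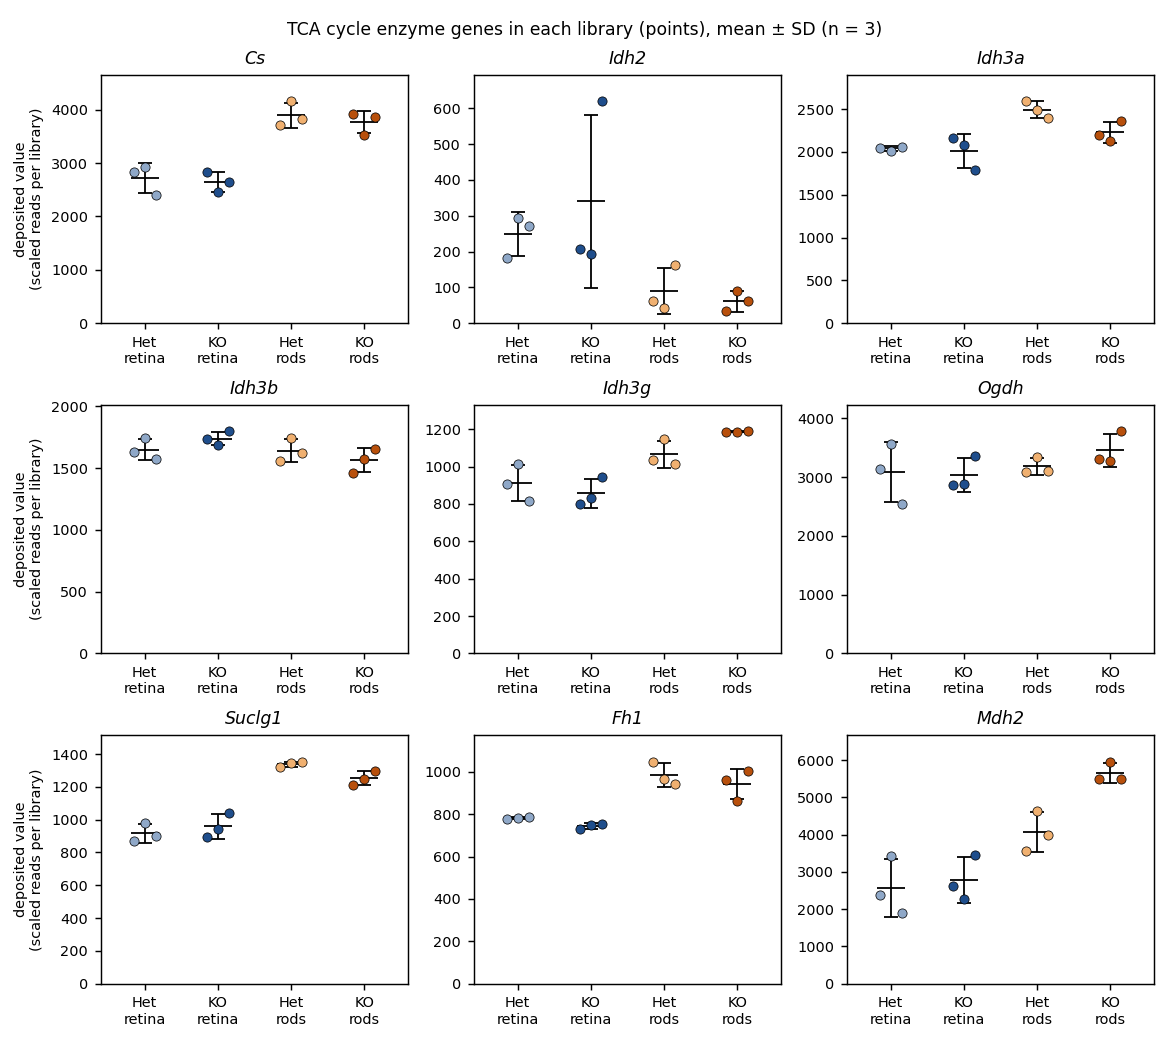
Deposited values (scaled reads per library, linear axis from 0) of the 9 TCA cycle genes in Het retina, KO retina, Het rods and KO rods; points are libraries, and lines with bars are the mean ± SD (n = 3). The rod libraries of Cs, Suclg1 and Mdh2 lie above the retina libraries, Idh2 lies lower in rods with KO retina replicate 3 at 620, and Mdh2 is higher in KO rods (5490 to 5963) than in Het rods (3575 to 4644).

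KO mice gave separate rod and retina libraries, and 7 of the 9 members passed as higher in KO rods than in KO retina, with Idh2 lower and Idh3b not called. Of 16121 genes tested, 25.7% were called higher and 36.5% lower. After scaling, 8 members were separated upwards and Idh2 downwards, where 32.7% and 39.4% of all genes were (72.1% in either direction). Mdh2 led with a log2 fold change of 1.42 (SE 0.17, adjusted p = 0.000102 in limma), followed by Cs at 0.88 and Idh3g at 0.84. Suclg1 was at 0.76, Fh1 at 0.71, Ogdh at 0.56 and Idh3a at 0.52. The member median was 0.71 against -0.02 over all genes tested. Ogdh and Idh3a fell under the size required without any one KO retina library (0.32 to 0.46 and 0.27 to 0.38) and without KO rod replicate 3 (0.49 and 0.48), and Fh1 without KO retina replicate 1 (0.49). Ogdh also fell under it after GC correction (0.48), as did Idh3a with RLE scaling (0.48). Without 1 KO retina library, 13455 to 13471 genes passed the filter instead of 16121, so the genes behind the scaling changed as well. The part of the library and that of the filter in these lost calls was not tested.

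The scaling sets how many members count as higher. The main choice was TMM scaling. With library totals alone, 0 members were called higher and 1 lower in Het mice, and 1 higher and 1 lower in KO mice, while Idh3b (-0.17) and Ogdh (-0.11) turned negative in Het mice. That scaling moved the median of all genes from -0.11 to -0.51, and the members' median above it was 0.65 with TMM and 0.64 with totals in Het mice. It was 0.40 or 0.41 without Het retina replicate 1 or 2, and in KO mice it went from 0.73 to 0.47 without KO retina replicate 1, where fewer genes passed the filter. The share of calls that were higher over all genes fell from 36.8% to 13.6% in Het mice and from 41.3% to 12.7% in KO mice.

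The remaining mitochondrial subunits of the cycle showed a similar spread in Het mice, with 5 of 9 called higher, 1 lower and 3 not called. Those called higher were Dld (log2 fold change 1.15), the shared dehydrogenase component, Sdha, Sdhc (0.82) and Sdhd (0.54) of succinate dehydrogenase, and Sucla2 (0.99). Suclg2 was the one called lower, with deposited values of 147, 143 and 432 in Het retina against 6, 2 and 35 in Het rods. Its log2 fold change was -4.10 (SE 0.79, adjusted p = 0.0018 in limma), and the groups did not overlap. Of 12 genes for cytosolic counterparts and reactions that feed the cycle, 8 were called higher, among them Idh1 (1.19), Me2 (1.19), Got2 (0.97), Mdh1 (0.69) and Acly (0.61). The genes called lower were Pcx (-1.33), the pyruvate carboxylase, and Me3 (-5.02), a mitochondrial malic enzyme with 157, 169 and 132 in Het retina and 2, 1 and 4 in Het rods. Of the 16110 genes tested between Het rods and Het retina, 21.4% were called higher and 36.8% lower.

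Ratios of 2 genes inside a library need no scaling between libraries, and 11 pairs, of which 10 are reported, were compared between 6 rod and 6 retina libraries with an exact two-sided permutation test. There were 5 pairs that did not overlap and reached the smallest p of this test, 0.00216 (adjusted p = 0.00476 over 11 pairs). The ratio of Sucla2 to Suclg2 was 3.13 to 12.5 in retina and 73.8 to 643 in rods, a difference of 5.25 on the log2 scale. Suclg1 to Suclg2 was 2.08 to 7.13 in retina and 36.5 to 336 in rods, a difference of 5.16. These rod ratios rest on Suclg2 values of 2 to 35. Idh2 to Idh3a was 0.0891 to 0.347 in retina and 0.0159 to 0.0685 in rods, a log2 difference of -2.20, and Idh2 to the cytosolic Idh1 differed by -2.77. Idh3b to Idh3a differed by -0.30, so that within a library Idh3b was lower relative to Idh3a in rods. Fh1 to Cs overlapped between the fractions and differed by -0.18 (adjusted p = 0.0397, exact permutation test). This p was lost on leaving out any 1 of 9 libraries (0.0506 to 0.0794), that is any but Het retina replicate 2, KO retina replicate 1 and Het rod replicate 1. Idh3g to Idh3a, Mdh2 to Mdh1, Ogdh to Ogdhl and Mdh2 to Cs had adjusted p between 0.0714 and 0.279 in the same exact test. The test treats the 12 libraries as independent, although rod and retina libraries of 1 replicate number may share an animal. A p that keeps such libraries together was not computed, and it could not be as low. In the same exact test the 5 pairs without overlap had adjusted p of 0.183 in Het mice alone and 0.157 in KO mice alone. With 3 against 3 libraries the smallest p is 0.1, so no pair could pass there.

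**Figure D2:**
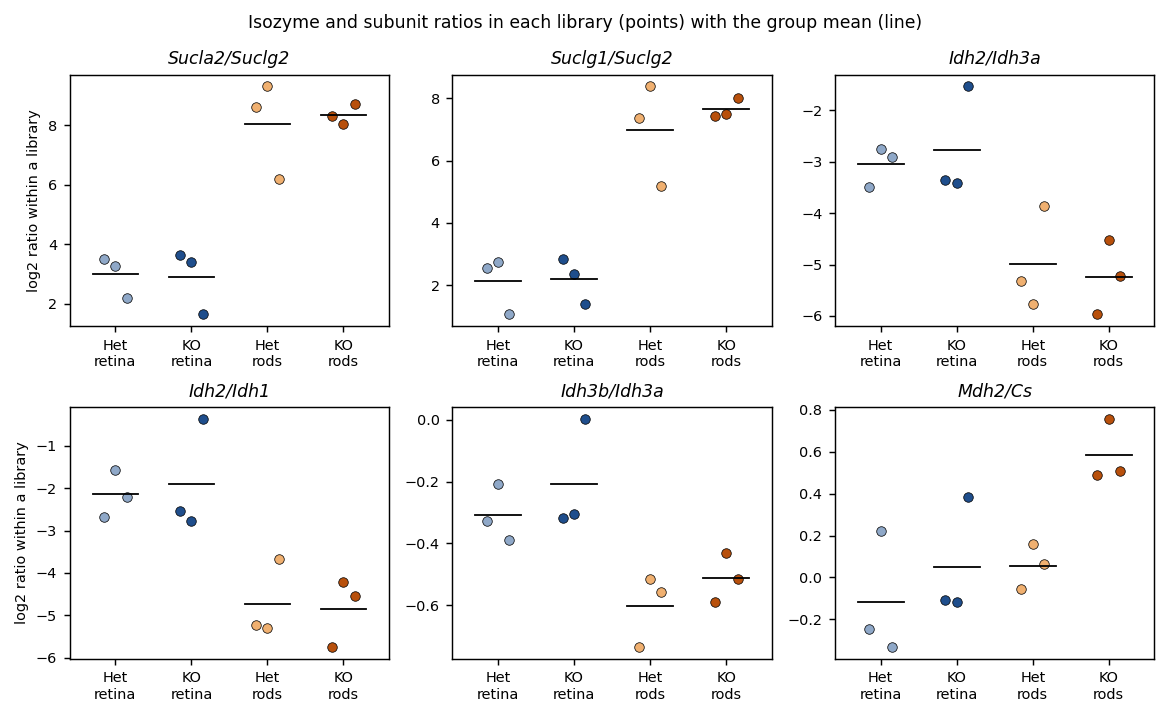
Log2 ratio of 2 genes' deposited values (plus 2) within each library for 6 pairs; points are libraries, and lines are group means (n = 3). The ratios to Suclg2 are higher in all 6 rod libraries and the ratios of Idh2 lower, whereas Mdh2 to Cs differs mainly between KO rods (0.49 to 0.76) and Het rods (-0.05 to 0.16).

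Per kilobase of the longest coding transcript, Mdh2 had the highest deposited level of the 9 members in every group, with a mean of 1763 ± 530 in Het retina, 1908 ± 422 in KO retina, 2797 ± 370 in Het rods and 3880 ± 187 in KO rods (SD, n = 3). Every Mdh2 library lay above every library of the next member. Idh2 was lowest in all 4 groups, at 51.4 ± 36.3 per kilobase in Het rods, and Fh1 came next at 374 ± 21.1. Cs and Idh3b came after Mdh2, with Idh3b ahead in retina (1021 ± 53.3 against 929 ± 94.5 in Het) and Cs ahead in rods (1332 ± 79.6 against 1016 ± 59.1 in Het). In Het retina the libraries of Idh3b and Cs overlapped. Idh3a, Ogdh, Idh3g and Suclg1 filled the middle, where neighbours overlapped in retina and partly in rods, and in KO retina Fh1 and Idh2 overlapped as well. The members together took 0.103% ± 0.0120 of the total in Het retina, 0.104% ± 0.00824 in KO retina, 0.115% ± 0.00611 in Het rods and 0.124% ± 0.00314 in KO rods.

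Across the 12 libraries, 8 of the members followed one another, with Pearson correlations of 0.786 (Idh3a) to 0.943 (Idh3b) with the mean of the other members, whereas Idh2 had -0.715. These are descriptions over 12 libraries of 2 fractions, whose difference they share. The genes whose log2 profile was most like the members' mean, among 10382 genes, were Ncstn (0.984), Ctsa (0.983), Mrpl27 (0.982), Rsph3a (0.982) and Abhd4 (0.978). That mean was taken over all 9 members and so includes Idh2, which ran against the others.

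Between KO and Het rods, which was the study's main comparison, Mdh2 was higher in KO rods and the other 8 members were not called. The Het rod libraries had 3575, 4644 and 3998, whereas the KO rod libraries had 5494, 5963 and 5490. Every KO library exceeded every Het library, and the log2 fold change was 0.56 (SE 0.10, adjusted p = 0.00414 in limma), with scaled means of 5511 ± 457 and 3745 ± 480 (SD, n = 3). Thus 1 of the 9 members was called higher, where 11.2% of 13055 genes were called higher and 1.91% lower. The member median was 0.02, against -0.01 over all genes tested. The call of Mdh2 was lost without Het rod replicate 1 (0.47, adjusted p = 0.0205 in limma) and without KO rod replicate 2 (0.49, adjusted p = 0.0111), where the change fell just short of 0.5. It was also lost with library totals alone (0.48, adjusted p = 0.00442 in limma) and in 1 fit of all 12 libraries (0.51, adjusted p = 0.19), where 0 genes were called and 3135 had an unadjusted p under 0.05.

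The other members did not pass both the adjusted p and the size required. Idh3g had 1034, 1147 and 1015 in Het rods, whereas the KO values were 1186, 1186 and 1188, without overlap, and a log2 fold change of 0.24 (SE 0.08, adjusted p = 0.0561 in limma). Ogdh had 3092, 3341 and 3108 against 3300, 3281 and 3777, with a log2 fold change of 0.20 (SE 0.08, adjusted p = 0.0751 in limma). The deposited values of Idh3a were lower in all 3 KO libraries (2193, 2127 and 2364), but after scaling the groups overlapped and the log2 fold change was -0.08. Suclg1 likewise had lower deposited values in KO rods (1214, 1251 and 1299), with -0.01 after scaling. Cs was at 0.03, Fh1 (963, 862 and 1003 in KO rods) at 0.02 and Idh3b (1458, 1577 and 1652) at 0.01, all with SE of 0.08 to 0.09 and adjusted p of 0.768 to 0.935 in limma. Idh2 was at -0.34 with an SE of 0.60, so that a change of either sign and considerable size could not be told at these values. After scaling, 3 of 9 members did not overlap between the genotypes, all higher in KO rods (Mdh2, Idh3g and Ogdh), where 23.7% of all genes did so in that direction and 20.4% in the other (44% in all).

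**Figure D3:**
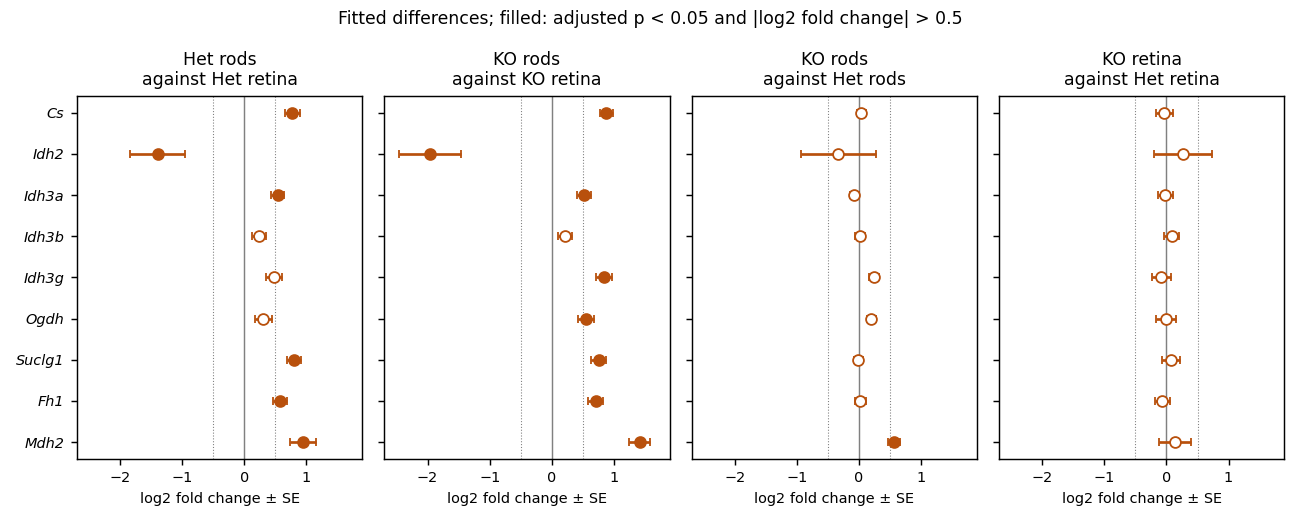
Log2 fold change ± SE of the 9 members in 4 comparisons of 3 against 3 libraries; filled points passed the test, and dotted lines mark 0.5 in either direction. Most members lie right of 0 in rods against retina, with Idh2 at -1.40 and -1.96, and Mdh2 at 0.56 is the one filled point between genotypes.

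The KO effect in rods followed the GC content of transcripts. Across the genes tested, Spearman's rho between GC content and log2 fold change was 0.703, and the 10% of genes lowest in GC had a median of -0.28, against 0.69 for the 10% highest in GC. Mdh2 and Idh2 were the members highest in GC, both at 55.4%, and Idh3a was lowest at 46.9%, around a median of 49.5% over all genes. The 1222 genes within 1 percentage point of the GC content of Mdh2 had a median log2 fold change of 0.38, against 0.56 for Mdh2 itself. The 1226 such genes around Idh2 likewise had 0.38, against -0.34 for Idh2. For the other 7 members the like median lay between -0.13 and 0.14. After removal of the GC trend from each library, the Mdh2 difference was 0.23 (SE 0.06, adjusted p = 0.0443 in limma), under the size required, so 0 members were called. Over all genes, the correction took the number called from 1710 to 366 and the share of calls that were higher from 85.4% to 68.0%, and library totals alone gave 67.3%.

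**Figure D4:**
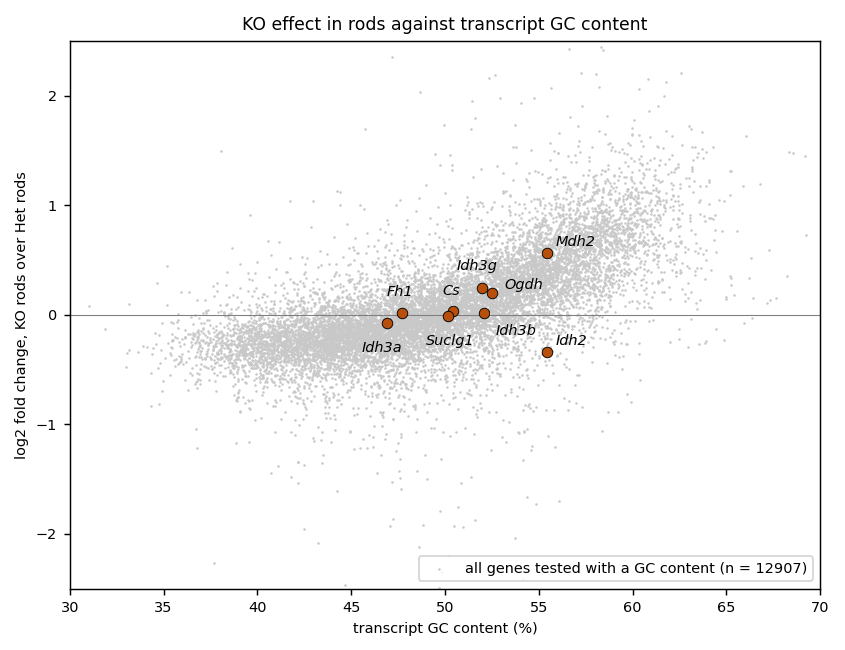
Log2 fold change of KO over Het rods (vertical axis, shown from -2.5 to 2.5) against transcript GC content in percent; grey points are 12907 genes tested with a GC content, and orange points are the 9 members. The grey cloud rises to the right, and Mdh2 (0.56) and Idh2 (-0.34) stand at the same GC content, 55.4%.

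The same trend could be followed library by library. The GC tilt of a library, taken as the median log2 deviation from the fraction's mean in the 10% of genes highest in GC minus that in the lowest 10%, was -0.81, -0.23 and -0.42 for the Het rods, whereas KO rods had 0.42, 0.76 and 0.28. The 6 rod libraries had the same order in Mdh2 as in tilt, from Het rod replicate 1 (3575) to KO rod replicate 2 (5963). In this order KO rod replicates 3 and 1 were nearly equal in Mdh2 (5490 and 5494). In retina the tilt was -0.24, 0.86 and -0.84 in Het and 0.01, -0.63 and 0.90 in KO, and the genotypes overlapped. The 6 retina libraries also had the same order in Mdh2 as in tilt, from Het retina replicate 3 (1909) to KO retina replicate 3 (3457). Idh2, at the same GC content as Mdh2, did not keep the order of tilt. From lowest to highest tilt, Idh2 had 63, 162, 44, 61, 33 and 91 in rods. In retina it had 272, 194, 181, 208, 295 and 620. The share of all genes with the order of tilt was not computed. In rods the tilt separated the genotypes completely, so genotype and tilt cannot be told apart there. No r is given, since the rod libraries fall into separate groups.

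**Figure D5:**
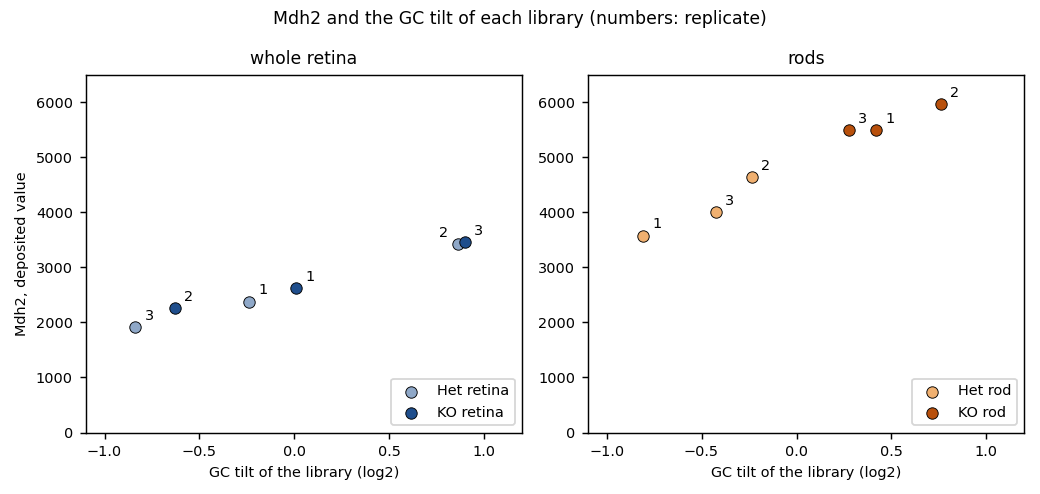
Deposited value of Mdh2 (linear axis from 0) against the GC tilt of each library (log2), for whole retina and for rods; numbers are replicates and colours are groups. Mdh2 rises with tilt in both panels, and in rods the KO libraries (tilt 0.28 to 0.76) lie right of the Het libraries (-0.81 to -0.23).

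Among the remaining mitochondrial subunits, 0 of 8 tested were called between KO and Het rods, where 13.1% of 13055 genes were, and Suclg2 was too low to be tested. Sdhb was at 0.36 (SE 0.12, adjusted p = 0.0429 in limma) and Sucla2 at -0.37 (SE 0.09, adjusted p = 0.0154), both under the size required. Their transcripts have 54.9% and 43.2% GC, and after GC correction the differences were 0.08 and -0.09 (adjusted p = 0.633 and 0.448 in limma). Over the 17 genes of both lists that were tested, Pearson's r between GC content and log2 fold change was 0.592 and Spearman's rho 0.559, a description across genes, which are not independent replicates. Over the 9 members alone these were 0.262 and 0.367.

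Of the 11 cytosolic and feeding genes tested, 2 were called higher in KO rods, where 11.2% of 13055 genes were. Ogdhl, a paralog of Ogdh, rose by a log2 fold change of 0.59 (SE 0.11, adjusted p = 0.00527 in limma), and Pcx by 0.69 (SE 0.22, adjusted p = 0.0387), from 59, 62 and 58 in Het rods to 89, 121 and 72. Neither passed after GC correction, where Ogdhl was at 0.30 (adjusted p = 0.0491 in limma) and Pcx at 0.17 (adjusted p = 0.618). Acly, the ATP citrate lyase that draws citrate out of the cycle for lipid synthesis, was at 0.48 (SE 0.07, adjusted p = 0.00315 in limma) and at 0.41 after GC correction (adjusted p = 0.00356), under the size required in both. Mdh1, the cytosolic malate dehydrogenase, was at 0.03 before and 0.25 after correction (adjusted p = 0.0317).

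Within libraries, 4 of the 10 ratios reported did not overlap between KO and Het rods, at the smallest exact permutation p that 3 against 3 libraries allow, 0.1 (adjusted p = 0.22 over 11 pairs). Of single genes, 44% of 13055 did not overlap after scaling, so this count does not set the pairs apart. The share over other pairs of genes was not computed, and Mdh2 enters more than 1 of these ratios. Mdh2 to Mdh1 differed by 0.54, Mdh2 to Cs by 0.53, Idh3g to Idh3a by 0.32 and Ogdh to Ogdhl by -0.39 on the log2 scale. A ratio inside a library keeps any difference in GC content between its 2 genes.

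In whole retina, KO and Het libraries were not told apart for any member. Over all genes 0 of 16863 were called in limma, or 0% in either direction, with 140 at an unadjusted p under 0.05. Members ranged from -0.08 (Idh3g) to 0.27 (Idh2, SE 0.47), with 0.14 for Mdh2 (SE 0.26) and adjusted p of 1 in limma. After scaling 0 of 9 members were without overlap, against 3.52% of all genes (1.54% higher and 1.99% lower). Fh1 had deposited values of 728, 751 and 755 in KO retina, all just under 777, 781 and 788 in Het retina, yet the scaled groups overlapped. Idh2 spread most, from 194 to 620 in KO retina.

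An interaction fit with all 12 libraries asked whether the KO effect differed between the fractions. The difference was called for 0 of 17192 genes in limma, or 0%, with 604 at an unadjusted p under 0.05. For Mdh2 the difference was 0.32 (SE 0.29, adjusted p = 0.804 in limma), so the Mdh2 effect in rods was not shown to differ from that in retina. The members ranged from -0.71 (Idh2) to 0.32 (Mdh2), and their lowest adjusted p was 0.802. This test and the separate comparisons use the same libraries.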

How the data were processed

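The authors deposited 1 table of whole-number values per gene for 12 libraries (polyA RNA, SMART-Seq V4 cDNA). The submitters' processing notes name CASAVA 1.8.2, HISAT2, DESeq2, edgeR and the build GRCm39; their roles, the annotation and the strand setting are not given in the sources used here. The values are a signal that the authors scaled per library, as totals within a fraction are almost equal, and not raw counts, so no count model was used and depth is unknown. The members, lists and rules were chosen with earlier results of these data known.

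Values were scaled with TMM factors over the libraries compared, raised by a pseudocount of 2 and taken to log2. Genes with about 10 in at least 3 libraries and a sum of at least 15 were fitted with limma 3.58.1 (R 4.3.3; trend and robust options), with Benjamini-Hochberg adjustment over all genes tested. Fold changes on this scale understate the change of low genes. Only the groups compared entered a fit, except for the interaction. Unlike in the study, rod-depleted genes were kept between KO and Het rods, and their removal was an alternative. Ratios were compared with exact permutation tests. GC content, length and chromosome came from GENCODE vM21 transcripts (GRCm38) by Ensembl identifier, with 98.3% to 98.9% of tested genes matched. Promoters came from RefSeq (8 of 9 members matched). All 9 members, the other subunits called or most abundant, Ptpn11 and the 5 most alike genes are named, with some uncalled genes named after their values were seen. Fits were tested on simulated data. For KO against Het rods, 80.3% of 200 genes changed by 1 on the log2 scale were recovered, and 2.52% of calls were false. That simulation held no GC trend, no outlying library and no smaller change, so it does not cover most member differences. Replicate numbers from the titles paired Het rods with Het retina (correlations of deviations 0.251 to 0.468), but not the other comparisons. A gene of the lists is counted in them but not reported here by name. The table held 0 columns of other samples.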

Additional observations from a re-analysis of the deposited data

How the results depend on the processing

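The original depth is not known, values are scaled, and 3 libraries a group limit what can be told; a p that misses the threshold does not show that values did not differ. Causes of the changes listed here were not tested, apart from those that follow from fewer libraries or genes in a fit. The replicate number as a block changed no call of a member in any comparison; genes called were 9829 against 9376 (Het rods and retina, the comparison where the numbers paired the libraries), 9877 against 10033 (KO rods and retina) and 1885 against 1710 (KO and Het rods), with 0 in the rest. Other pseudocounts and RLE scaling changed no member's direction in the pairwise comparisons. With RLE, Idh3g gained a call in Het rods against retina (0.52, adjusted p = 0.00701 in limma) and Idh3a lost its call in KO rods against retina (0.48). An alternative chosen after seeing the data left out retina libraries in which the 5 listed lens genes took over 1%. It leaves 1 Het and 2 KO retina libraries, with KO retina replicate 2 kept at 0.917%. Its values assume that the lone Het library varies like the other groups.

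For rods against retina in Het mice, library totals alone left 1 member called, with Idh3b at -0.17 and Ogdh at -0.11. Without the high-lens retina libraries, 3 Het rod libraries against 1 Het retina library left 3 members and 5395 genes called. In KO mice, totals alone left 2 members called, with Idh3a at -0.0127 and Idh3b at -0.32. Leaving out 1 library at a time gave 5335 to 8729 genes and 3 to 7 members in Het mice (fewest genes without Het retina replicate 1, fewest members without Het retina replicate 2), and 5800 to 9405 genes and 5 to 8 members in KO mice (fewest without KO retina replicate 1, and 6414 genes without KO retina replicate 2), with Idh3b -0.00277 to 0.26; fewer genes passed the filter there.

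For KO against Het rods, 0 members were called with library totals, GC correction, block and GC correction together, and 1 fit of 12 libraries, with 366, 443 and 0 genes called in the last 3. Signs turned with totals for Cs (-0.0486), Idh3b (-0.0713) and Fh1 (-0.0651), with the single fit for Cs (-0.0224), Idh3b (-0.0452) and Fh1 (-0.039), and with GC correction, alone and with the block, for Idh3a (0.11), Idh3b (-0.0551) and Suclg1 (0.0365). Suclg1 was at 0.0144 without a filter and 0.00344 with rod-depleted genes removed, which kept Mdh2 called and dropped Idh2. Leaving out 1 library gave 889 to 1941 genes (889 without Het rod replicate 1, 1100 without KO rod replicate 2) and 0 to 1 members, with Cs -0.0045 to 0.0748, Fh1 -0.022 to 0.059, Idh2 -0.73 to 0.18, Idh3b -0.0304 to 0.0645 and Suclg1 -0.0357 to 0.0177.

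For KO against Het retina, Ogdh was at 0.00187 without a filter and 0.00908 in the single fit, and Idh3a at 0.0017 with GC correction, alone and with the block, and 0.0593 without the high-lens libraries (2 KO against 1 Het), where 94 genes and 0 members were called. Leaving out 1 library gave 0 to 1 genes and 0 to 0 members, with Cs -0.10 to 0.0574, Idh2 -0.30 to 0.60, Idh3a -0.0551 to 0.0337, Idh3g -0.18 to 0.00179, Mdh2 -0.0578 to 0.37, Ogdh -0.12 to 0.11 and Suclg1 -0.0175 to 0.14.

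For the difference of the KO effect, signs turned for Cs, from -0.04 to 0.0125 (RLE), 0.12 (no filter), 0.00511 (GC correction, alone and with the block) and 0.11 (without high-lens libraries, with 1 Het retina library). Fh1 went from -0.02 to 0.0292, 0.00538 (totals), 0.13, 0.13 and 0.0642 in the same order, and Idh3a to 0.00455 with GC correction, alone and with the block. Leaving out 1 library gave 0 to 1 genes (1 without Het rod replicate 3) and 0 to 0 members, with Cs -0.078 to 0.11 and Fh1 -0.0701 to 0.12.

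Among ratios of rods to retina, Idh3g to Idh3a was -0.0598 in Het mice alone, where 3 against 3 libraries cannot pass. Leaving out 1 library, ratios between KO and Het rods ranged over Fh1 to Cs -0.0774 to 0.0636, Idh2 to Idh1 -0.42 to 0.43, Idh2 to Idh3a -0.65 to 0.30, Sucla2 to Suclg2 -0.62 to 0.94 and Suclg1 to Suclg2 -0.23 to 1.37, and in retina over Fh1 to Cs -0.0914 to 0.0581, Idh2 to Idh1 -0.51 to 0.70, Idh2 to Idh3a -0.33 to 0.61, Idh3b to Idh3a -0.00329 to 0.16, Idh3g to Idh3a -0.21 to 0.0425, Mdh2 to Mdh1 -0.13 to 0.32, Ogdh to Ogdhl -0.25 to 0.00168, Sucla2 to Suclg2 -0.48 to 0.54 and Suclg1 to Suclg2 -0.46 to 0.47.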
